A study of Mus musculus with 6 samples.

Results

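Dual specificity MAP kinase phosphatases switch MAP kinases off by removing the phosphate groups from both the threonine and the tyrosine of the kinase's activation loop. The genes described here were chosen by name, with earlier results of these data known: Dusp1, Dusp2, Dusp4, Dusp5, Dusp7, Dusp8, Dusp9, Dusp10 and Dusp16. Of these 9 genes, 8 had at least 1 gene probe with that single symbol in the platform's annotation, among 18010 genes with a tested probe of a single symbol. Together they had 11 of the 34967 gene probes: Dusp4, Dusp7 and Dusp8 had a pair each and the other 5 genes had 1 each. Dusp5 had none.

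RNA levels were read on 6 single-colour CodeLink mouse arrays, 3 per group. The cells of both groups were cortical precursors from C57BL/6 mouse fetuses of embryonic day 12.5, taken from the dorsal telencephalon and grown as neurospheres, floating clusters of neural precursor cells. The medium of both groups had no serum and held 20 ng/ml bFGF, 20 ng/ml EGF, 0.15 ng/ml LIF, insulin, transferrin, selenium, heparin and progesterone. One group was transfected with a 2'-O-methyl oligonucleotide (2' O Me-335) that pairs with miR-335 and so blocks this microRNA. The other received a nonsense 2'-O-methyl oligonucleotide (2' O Me-EGFP). The labels give the duration as 24 without a unit. They do not say whether the 3 replicates of a group came from separate cultures or fetuses, so p-values measure only the spread between these arrays, which may be technical. No microRNA was measured in the values used, and how far miR-335 was blocked is not known here.

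An intensity of 1 is the array's median. A probe counts as above background on an array when it exceeds the median of the negative control spots by 3 scaled median absolute deviations, a limit of 0.492 to 0.692. The cells carried the label's defining genes: all 8 neural precursor markers checked, among them Sox2, Pax6 and Nes, were above background on all 6 arrays. Of other cells' markers, 1 of 5 for microglia, 3 of 6 for endothelium and 1 of 6 for mesenchyme were above background on at least 3 arrays. So were 5 of 5 for the oligodendrocyte lineage and 5 of 6 for the ventral telencephalon, the region next to the one dissected. The summed intensity of the oligodendrocyte lineage markers was 84.3 to 123.3 in the controls and 78.4 to 107 in the anti-miR-335 arrays. Cnp carried most of this sum, with 73.4 to 91.8 in the controls and 72.1 to 78.6 in the anti-miR-335 arrays. The summed intensity of the ventral markers was 22.04 to 28.3 against 24.1 to 29.5. The summed intensity of the microglial markers was 6.35 to 6.58 on the control arrays and 4.38 to 4.97 on the anti-miR-335 arrays; Ptprc and Itgam, which define these cells, were above background on 0 arrays, and Trem2 carried most of the sum. That of the 7 neuronal markers was 10.1 to 14.2 against 12.8 to 17.4, and that of the 6 astrocyte markers 160 to 200 against 182 to 207. The part of these cells in the phosphatase results was not tested. In such bulk samples fewer cells of a type and less RNA per cell cannot be told apart.

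The family falls into groups by location and substrate. Dusp1, Dusp2, Dusp4 and Dusp5 encode nuclear enzymes whose genes are switched on within minutes to hours of growth factor or stress signals, so that they act as negative feedback on the kinases that induced them. Dusp7 and Dusp9, with Dusp6, encode cytoplasmic enzymes that act mainly on ERK, the kinase driven by FGF and EGF receptors in precursor cultures. Dusp8, Dusp10 and Dusp16 encode enzymes that act mainly on JNK and p38, the stress-activated MAP kinases.

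The microRNA blocked in the treated cells has 2 mature arms in RefSeq (GRCm38.p6), and the labels do not say which arm the oligonucleotide matches. They are shown because they are what the treatment was directed against, with the seed (bases 2 to 8), the part that pairs with target mRNAs, in capitals.
mmu-miR-335-5p: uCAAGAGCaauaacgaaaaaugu
mmu-miR-335-3p: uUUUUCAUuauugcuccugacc

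Promoter windows of RefSeq (GRCm38.p6), 250 bases before to 50 after the start, were found for 7 of the 9 genes, all but Dusp4 and Dusp9. They were searched on both strands for the cAMP response element TGACGTCA, its core TGACG, the AP-1 type site TGANTCA, the GC box GGGCGG, the Egr-type site GCGNGGGCG, the TATA box TATAAA and the serum response element core. Each full TGACGTCA also counts as 2 matches of TGACG, 1 per strand, and the GC box can overlap the Egr-type site. Dusp8 held 2 full elements and Dusp1 held 1. Of all 32851 windows, 1.79% held at least 1 and 0.0396% held 2 or more. Stretches are shown for these members, whose values the results turn on, and for Dusp16, which held a single TGACG. Dusp2 and Dusp5 held a single TGACG too and are not shown. Whether matches go with the differences in RNA level was not tested. In the stretches every TGACG match, on either strand, is in capitals.
Dusp1, bases -200 to -101, chr17:26508573-26508672, minus strand: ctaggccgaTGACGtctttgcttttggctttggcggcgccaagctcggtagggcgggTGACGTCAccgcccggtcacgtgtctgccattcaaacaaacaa
Dusp8, bases -130 to -31, chr7:142095315-142095414, minus strand: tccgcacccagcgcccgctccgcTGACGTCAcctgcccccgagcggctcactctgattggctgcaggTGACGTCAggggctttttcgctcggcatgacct
Dusp16, bases -130 to -31, chr6:134792659-134792758, minus strand: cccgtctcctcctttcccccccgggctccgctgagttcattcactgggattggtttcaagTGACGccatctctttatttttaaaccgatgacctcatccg

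TGACG occurred in 20.8% of all windows. Dusp2 and Dusp5 each held 1 such match and Dusp7 and Dusp10 held 0. Egr-type sites, present in 5.55% of all windows, were found once each in Dusp2 and Dusp16. The serum response element core, present in 1.63%, was found in Dusp5 alone among the 7, 2 times. The GC box, in 35.7% of all windows, was found in all 7, while TGANTCA (7.81%) and TATAAA (13.6%) were found in 0 of the 7. A match describes the letters in the window and does not show that a factor binds there.

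**Figure D1:**
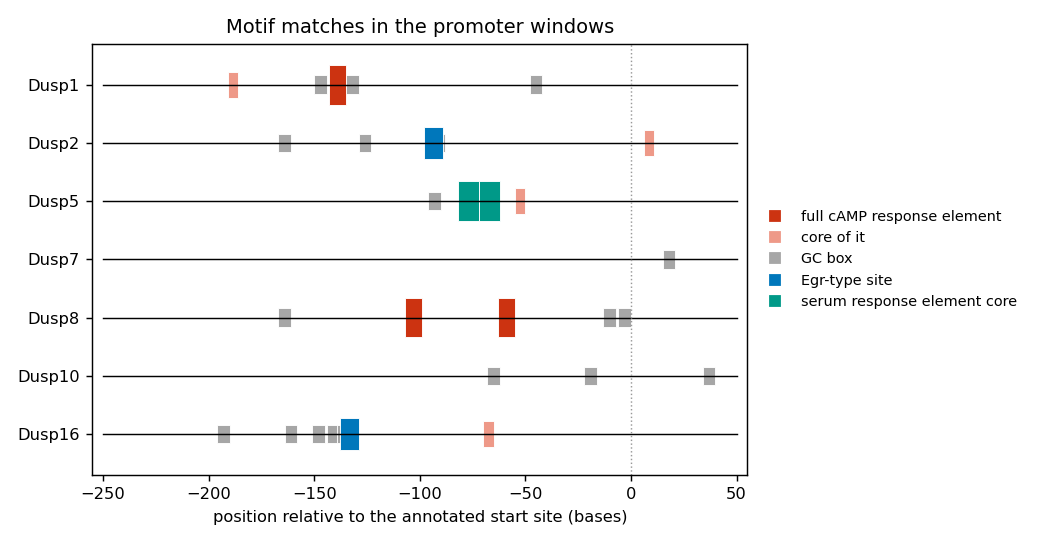
Motif matches in the promoter windows of the 7 genes that have one, by position in bases relative to the annotated start site (dotted line). Coloured boxes mark matches on either strand: Dusp8 holds 2 full cAMP response elements and Dusp1 holds 1, while Dusp7 and Dusp10 hold only GC boxes.

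The question was whether these phosphatase mRNAs differ when miR-335 is blocked. Among genes measured above background, the highest values were those of Dusp8 and Dusp1, at 1.66 and 1.56 times the control level, and the lowest was that of Dusp7, at a log2 difference of -0.27. By limma with Benjamini-Hochberg adjustment over 34847 probes, 0 of the 11 probes passed an adjusted p of 0.05; their adjusted p lay between 0.410 and 0.998. Over all probes 0% passed. At an unadjusted p under 0.05, 1 of the 11 was called, Dusp8 probe GE34137, against 9.07% of all probes; it was higher, as were 4.91% of all probes, while 4.17% were lower. For 3 of the 11 the arrays of the groups were fully separated, all higher in the anti-miR-335 arrays (Dusp8, Dusp9 and Dusp16), against 7.46% of all probes in that direction and 7.25% in the other. Of the 8 phosphatase probes above background on all 6 arrays this held for 1, Dusp8 probe GE34137, against 9.7% of such probes. On the brightest probe with each gene's symbol, 5 of the 8 genes were higher and the median log2 difference was 0.21. Of all genes 57.4% were higher, with a median of 0.05. A count of 5 of 8 is near that background. A brighter Dusp16 probe, GE1399188, has no symbol in the platform's annotation and was not used here. It differed by 0.07 ± 0.17 (SE), with overlapping groups. With it in place of the dimmer probe the median would be lower and the count the same. The median over the 8 genes was 0.39 without control replicate 1 and 0.0973 without control replicate 2. When dim probes, Dusp9 among them, were left out, the median of the remaining genes was 0.00202.

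Control replicate 1 stood apart in this comparison. Over all probes 0 passed with the 6 arrays, but without that array 1100 of 34654 (3.17%) did, 2.27% higher and 0.906% lower. Without both replicate 1 arrays 4.57% did, and without control replicate 2 or 3 alone 0 did. These counts describe the arrays and do not test whether control replicate 1 should be left out. The difference without it is given below for each of the 11 probes. Olig1, an oligodendrocyte lineage marker, read 1.93 on that array against 24.3 and 25.9 on the other controls, and 18.6, 26.8 and 1.61 on the anti-miR-335 arrays. Olig2 read 0.515, 1.72 and 1.47 in the controls and 1.35, 1.35 and 0.394 in the anti-miR-335 arrays. In each group 1 array was thus low for both markers, replicate 1 in the controls and replicate 3 in the anti-miR-335 group, and their part in the phosphatase results was not tested.

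**Figure D2:**
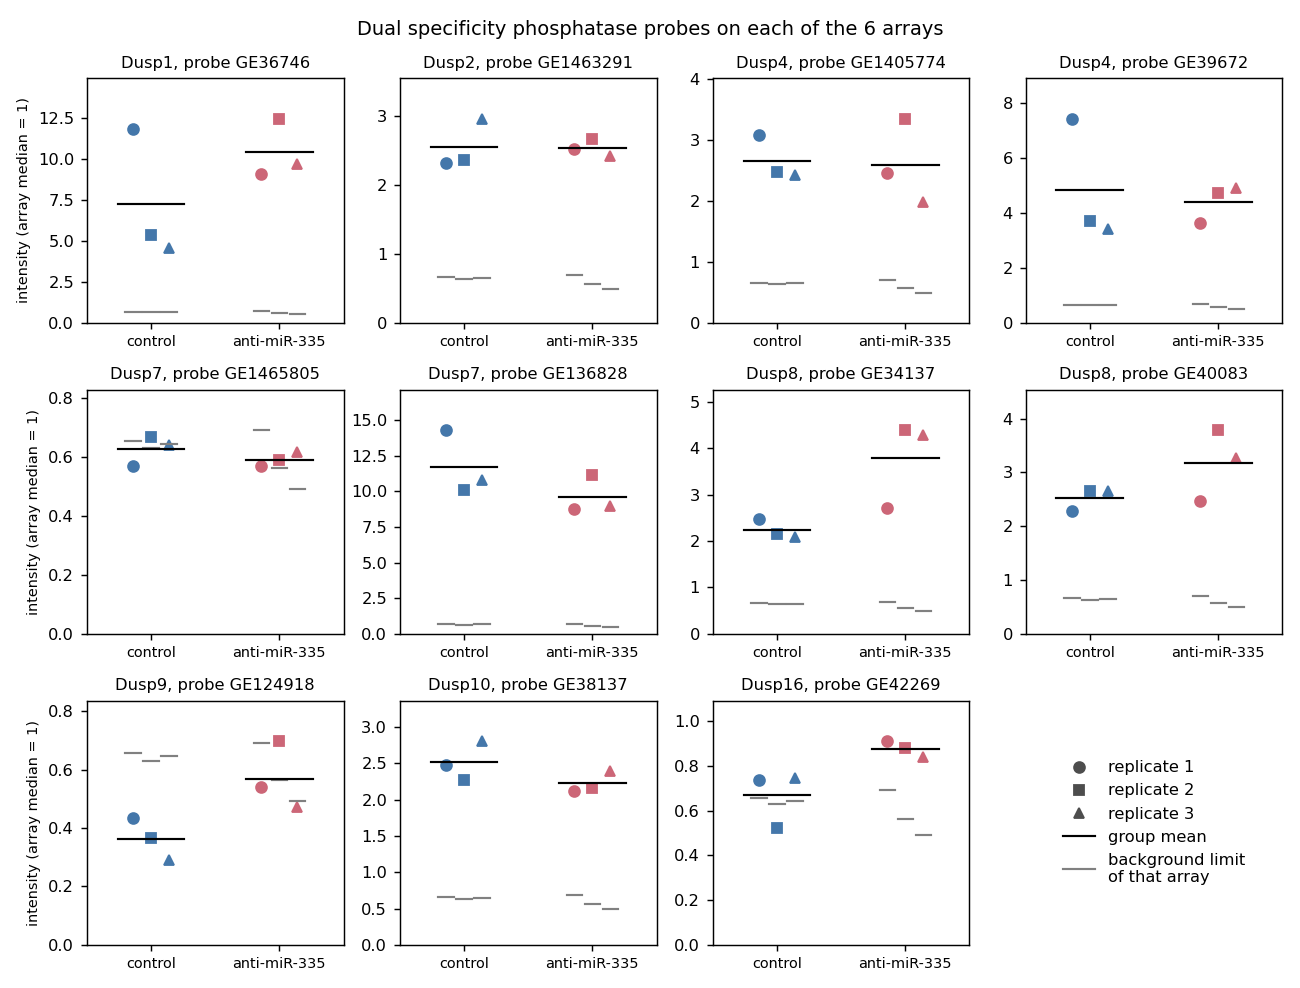
Intensity of each of the 11 probes (vertical axis, in units of the array's median, starting at 0) in the 3 control and 3 anti-miR-335 arrays, with a marker shape for each replicate, the group mean as a black line and the background limit of each array in grey. For Dusp1 and for Dusp4 probe GE39672, control replicate 1 lies far above the other controls, and for Dusp8 probe GE34137 all 3 anti-miR-335 arrays lie above all 3 controls.

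Among the inducible nuclear phosphatases, Dusp1 encodes the enzyme known as MKP-1, which acts on p38, JNK and ERK and is itself an immediate early gene. Its intensity was 11.9, 5.37 and 4.56 on control replicates 1, 2 and 3. In the anti-miR-335 group it was 9.05, 12.4 and 9.71, in the same order of replicates. The anti-miR-335 arrays all lay above control replicates 2 and 3, but control replicate 1 lay within their range, so the groups overlapped. The means were 10.4 ± 1.79 (SD, n = 3) against 7.26 ± 4.0 (SD, n = 3), a log2 difference of 0.64 ± 0.29 (SE), with a 95% interval of -0.01 to 1.29 and a limma adjusted p of 0.561. Without control replicate 1 the log2 difference was 1.06 ± 0.14 (SE), with a limma adjusted p of 0.0158. It was the only 1 of the 11 probes that passed there. Control replicate 1 held the highest control value, so leaving it out raised the difference and shrank the control spread. Leaving out control replicate 2 or 3 instead gave 0.49 and 0.37 (adjusted p = 0.836 and 0.849 by limma). Leaving out the whole replicate 1 pair gave 1.15 (adjusted p = 0.0213) and array weights gave 0.90 (adjusted p = 0.0494), while the other alternatives left the adjusted p at 0.480 to 0.997. The difference was positive in all 18 fits, from 0.351 to 1.15.

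Dusp4 encodes MKP-2, a nuclear phosphatase of ERK, JNK and p38. Its brighter probe, GE39672, read 7.41, 3.69 and 3.41 on control replicates 1, 2 and 3 and 3.62, 4.70 and 4.89 on the anti-miR-335 arrays. On this probe, unlike for Dusp1, control replicate 1 was the highest of the 6 arrays, and the other 5 arrays lay between 3.41 and 4.89. The log2 difference was -0.05 ± 0.26 (SE) over all arrays (95% interval -0.63 to 0.52) and 0.30 ± 0.14 without control replicate 1 (adjusted p = 0.288 by limma), so its sign turned with that array. The dimmer probe, GE1405774, read 3.08, 2.47 and 2.43 in the controls and 2.46, 3.34 and 1.98 in the anti-miR-335 arrays. On that probe control replicate 1 was not the highest array, and the log2 difference was -0.06 ± 0.20, or 0.05 ± 0.20 without control replicate 1, so this sign turned too.

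Dusp2 encodes PAC-1, a nuclear phosphatase best known from lymphocytes, where mitogens induce it. Its intensities were 2.31, 2.36 and 2.95 in the controls and 2.52, 2.66 and 2.41 in the anti-miR-335 arrays. The anti-miR-335 values all fell inside the control range. The log2 difference was 0.00 ± 0.14 (SE) with a 95% interval of -0.32 to 0.32, and -0.06 ± 0.14 without control replicate 1.

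Relative to the mean of control replicates 2 and 3, control replicate 1 was 2.39-fold for Dusp1, 2.09-fold for Dusp4 probe GE39672, 1.26-fold for its second probe and 0.870-fold for Dusp2. The anti-miR-335 arrays were 1.82- to 2.5-fold for Dusp1, 1.02- to 1.38-fold for Dusp4 probe GE39672 and 0.908- to 1.0-fold for Dusp2. An immediate early list, mostly of transcription factor genes, had 23 measured genes. Their median log2 level above control replicates 2 and 3 was 0.48 on control replicate 1 and 0.75 to 0.96 on the anti-miR-335 arrays. They did not lie one way: 16 read higher on control replicate 1 than on both other controls, 5 read lower than on both, among them Atf3 and Klf6, and 2 lay between. These examples were chosen after their values were seen. Over all 18010 genes these medians were 0.09 and 0.06 to 0.12.

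**Figure D3:**
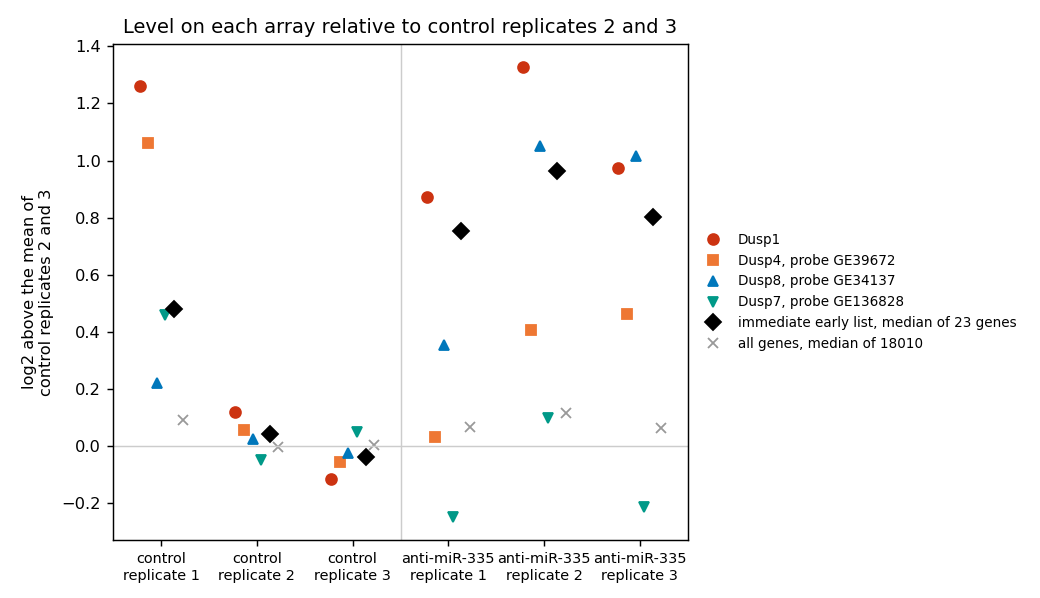
Log2 level on each of the 6 arrays (horizontal axis) above the mean of control replicates 2 and 3 for single probes (coloured), the median of 23 immediate early genes (black diamonds) and the median of 18010 genes (grey crosses). On control replicate 1, Dusp1 lies at 1.26 and Dusp4 probe GE39672 at 1.06, Dusp8 probe GE34137 lies at 0.22, and the immediate early median lies at 0.48.

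Of the cytoplasmic ERK phosphatases, Dusp7 was well above background on its probe GE136828, with 14.3, 10.1 and 10.8 in the controls and 8.76, 11.2 and 8.99 in the anti-miR-335 arrays. Control replicate 1 was again the highest array, and anti-miR-335 replicate 2 lay between the other controls and it. The means were 9.63 ± 1.32 (SD, n = 3) against a control mean of 11.7 ± 2.27 (SD, n = 3), which is a log2 difference of -0.27 ± 0.15 (SE; adjusted p = 0.624 by limma), and -0.12 ± 0.11 without control replicate 1. The second Dusp7 probe, GE1465805, exceeded the background limit on 1 control array and on 2 of the treated ones, with intensities of 0.569 to 0.670 over the 6 arrays. These values lie at the background limit, with a log2 difference of -0.08 ± 0.24 (SE), or -0.15 ± 0.27 without control replicate 1.

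Dusp9, the gene of MKP-4, was near background. It read 0.434, 0.365 and 0.290 in the controls and 0.541, 0.696 and 0.471 in the anti-miR-335 arrays. Only anti-miR-335 replicate 2 exceeded its array's limit, so no control array measured the gene above background. The 3 control values all lay below the 3 anti-miR-335 values, but against the lowest intensities above background no fold above 1 remained. The fitted log2 difference of 0.65 ± 0.31 (SE; adjusted p = 0.575 by limma) is therefore between values at background, as is the 0.79 ± 0.34 without control replicate 1. Dusp6, the third gene of this group and the ERK phosphatase most used as a readout of FGF signalling, had a probe whose value was empty on all 6 arrays and is not analysed here.

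The JNK and p38 phosphatases held the smallest p of the family. Dusp8, known as a neuronal and cardiac phosphatase of JNK and p38, read 2.47, 2.16 and 2.08 in the controls on probe GE34137. On the anti-miR-335 arrays it read 2.71, 4.39 and 4.28. All 3 anti-miR-335 arrays lay above all 3 controls, replicate 1 by little and replicates 2 and 3 by far more. The means were 3.79 ± 0.940 (SD, n = 3) against 2.24 ± 0.203 (SD, n = 3), a log2 difference of 0.73 ± 0.19 (SE) with a 95% interval of 0.31 to 1.15; the limma adjusted p was 0.410, and by p the probe ranked 242 of 34847.

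The second Dusp8 probe, GE40083, read 2.28, 2.65 and 2.66 in the controls and 2.48, 3.78 and 3.27 in the anti-miR-335 arrays. Anti-miR-335 replicates 2 and 3 again lay above every control, while replicate 1 lay within the control range. Its log2 difference was 0.31 ± 0.17 (SE; adjusted p = 0.624 by limma), in the same direction and smaller, and 0.24 ± 0.17 without control replicate 1. For probe GE34137 the difference was 0.81 ± 0.19 without control replicate 1 (adjusted p = 0.0560), 1.03 ± 0.10 without the replicate 1 pair (adjusted p = 0.0129) and 0.85 ± 0.16 with array weights (adjusted p = 0.0377). Its sign was positive in all 18 fits, with a range of 0.58 to 1.03, and its adjusted p in the 15 alternatives that did not pass was 0.0560 to 0.997.

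Dusp10, the gene of MKP-5, read 2.48, 2.28 and 2.80 in the controls and 2.12, 2.16 and 2.40 in the anti-miR-335 arrays. The groups overlapped only through anti-miR-335 replicate 3, which lay above control replicate 2. The log2 difference was -0.18 ± 0.14 (SE; adjusted p = 0.747 by limma), with a 95% interval of -0.49 to 0.14, and -0.18 ± 0.14 without control replicate 1. Dusp16, the gene of MKP-7, read 0.738, 0.524 and 0.748 in the controls, of which 2 were above background, and 0.911, 0.882 and 0.843 in the anti-miR-335 arrays, all above background. The groups did not overlap, at levels close to the background limit, and the log2 difference was 0.41 ± 0.24 (SE; adjusted p = 0.644 by limma), with a 95% interval of -0.12 to 0.93, and 0.49 ± 0.26 without control replicate 1. Of these 3 genes only Dusp8 had an interval that did not include 0, on 1 of its 2 probes.

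**Figure D4:**
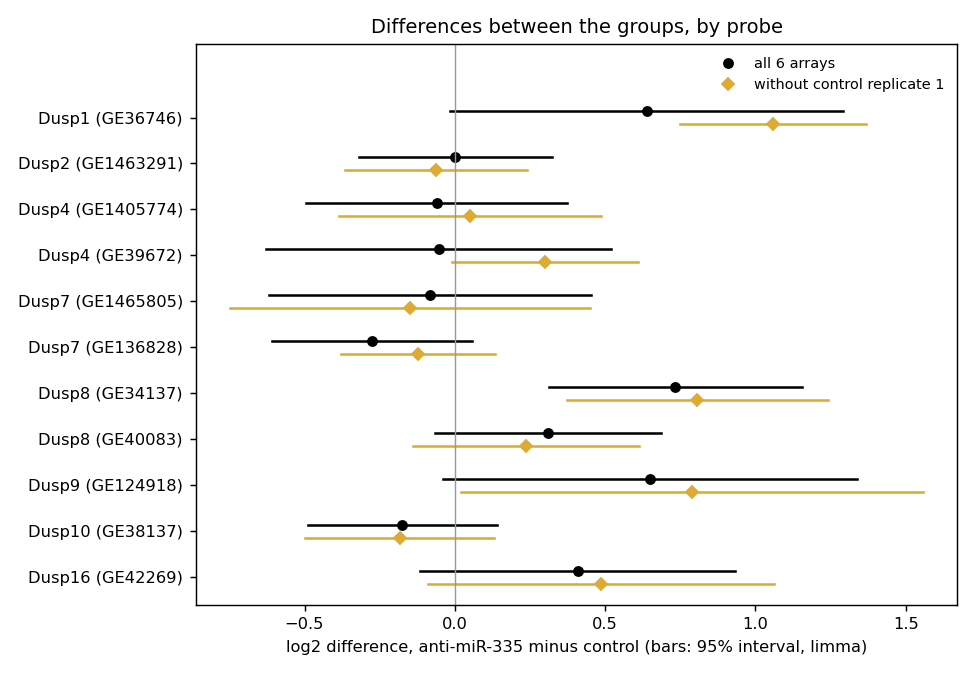
Log2 difference of anti-miR-335 minus control for each of the 11 probes, with its 95% interval from limma, over all 6 arrays (black circles) and without control replicate 1 (yellow diamonds). Over all arrays only the interval of Dusp8 probe GE34137 (0.31 to 1.15) lies wholly above 0; without control replicate 1 the Dusp1 interval narrows to 0.75 to 1.37.

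The kinases that these enzymes switch off, and the genes around them, were described through lists. Each list's median depended on the arrays used, and its range when arrays or same-numbered pairs were left out is given with it. Over all 18010 genes 57.4% were higher with a median of 0.05, the background for the count and median of every list. Shares of all probes given beside a list's calls also cover unnamed and dim probes. They therefore have another base than the list, which holds the brightest probe for each gene. Of 10 measured MAP kinase genes, 8 were higher and the median log2 difference was 0.18 (0.0409 without the replicate 3 pair to 0.269 without the replicate 1 pair), but 0 passed. Mapk12, which encodes the p38 gamma kinase, read 3.07, 2.51 and 2.46 in the controls and 3.13, 3.98 and 3.62 in the anti-miR-335 arrays (log2 difference 0.42 ± 0.15 SE; adjusted p = 0.481 by limma). Its groups did not overlap, with control replicate 1 just below the lowest anti-miR-335 array. Mapk8, the JNK1 gene, differed by 0.21 ± 0.18 and Mapk7, the ERK5 gene, by -0.15 ± 0.12. Of the 16 measured MAP kinase kinase and upstream genes 15 were higher, with a median of 0.25 (0.199 to 0.289) and 0 past the threshold. The kinase gene Map3k4 differed by 0.29 ± 0.10, the Ras activator gene Sos2 by 0.34 ± 0.11 and Map2k1, the MEK1 gene upstream of ERK, by 0.32 ± 0.12. Without control replicate 1, 2 of these 16 genes passed, Map2k1 among them (adjusted p = 0.0312 by limma), against 3.17% of all probes.

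Of the 15 measured genes for substrates and scaffolds 11 were higher, the median was 0.12 and 0 passed. The median was 0.262 without control replicate 1, 0.0449 without control replicate 3 and 0.0379 to 0.307 over all such cases. Mapk8ip1 encodes JIP1, a scaffold that holds JNK together with its upstream kinases. It read 8.05, 7.59 and 8.06 in the controls and 10.05, 14.7 and 13.7 in the anti-miR-335 arrays. The controls lay close together, control replicate 1 included, and all anti-miR-335 arrays lay above them. The log2 difference was 0.68 ± 0.14 (SE; adjusted p = 0.367 by limma), and 0.0386 was the adjusted p without control replicate 1. Mapk8ip2, the gene of the related scaffold JIP2, differed by 0.44 ± 0.16 with overlapping groups, and Srf, the serum response factor gene, by 0.34 ± 0.15. Without control replicate 1, 2 of the 15 genes passed, Mapk8ip1 and Srf (adjusted p = 0.0233 by limma), against 3.17% of all probes.

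Other phosphatases of the family and of the pathway were read in the same way. Of 15 measured DUSP and STYX genes outside the members 11 were higher, with a median log2 difference of 0.12 (0.0559 without anti-miR-335 replicate 2 to 0.185 without the replicate 1 pair) and 0 past the threshold or at an unadjusted p under 0.05. The 3 of smallest p were Dusp28 (0.29 ± 0.16 SE), Dusp13 (0.43 ± 0.25), which was above background on 2 of 3 control arrays, and Dusp21 (-0.17 ± 0.11). The 8 other MAP kinase phosphatase genes, of the PP2A, PP2C and tyrosine phosphatase kinds, had a median of 0.09 (0.00682 without the replicate 3 pair to 0.199 without the replicate 1 pair) and 0 passed, with Ppm1a at 0.15 ± 0.13, Ppm1b at 0.12 ± 0.16 and Ppm1d at 0.09 ± 0.14.

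Among genes that respond to ERK signalling, the 16 ERK feedback genes had a median log2 difference of 0.16, with 12 higher and 0 passing. That median was 0.281 without control replicate 1, 0.0263 without control replicate 3 and -0.00218 without the replicate 3 pair, up to 0.346 without the replicate 1 pair. Without control replicate 1, 1 of the 16 passed, the inhibitor gene Spry2 (adjusted p = 0.049976 by limma), against 3.17% of all probes. Phlda1, above background on 1 of 3 control arrays, differed by 0.75 ± 0.32 (SE), the receptor gene Fgfr3 by 0.62 ± 0.27 and Spred2, an inhibitor of Raf activation, by 0.37 ± 0.19. This list's median level on control replicate 1 was 0.49 above control replicates 2 and 3, and on the anti-miR-335 arrays it was 0.20 to 0.52. The immediate early genes, mostly for transcription factors, had the highest median of the 7 lists, 0.65 over 23 measured genes (0.477 to 0.899), with 21 higher. At an unadjusted p under 0.05, 12 of the 23 were called higher, against 4.91% of all probes, and 0 passed after adjustment. Without control replicate 1, 10 of the 23 passed, all higher, against 2.27% of all probes. This list was chosen with earlier results of these data known, so its counts are a description and not independent support. Jun differed by 0.92 ± 0.17 (adjusted p = 0.342 by limma), Fos by 1.06 ± 0.20 and Btg2 by 0.65 ± 0.17.

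**Figure D5:**
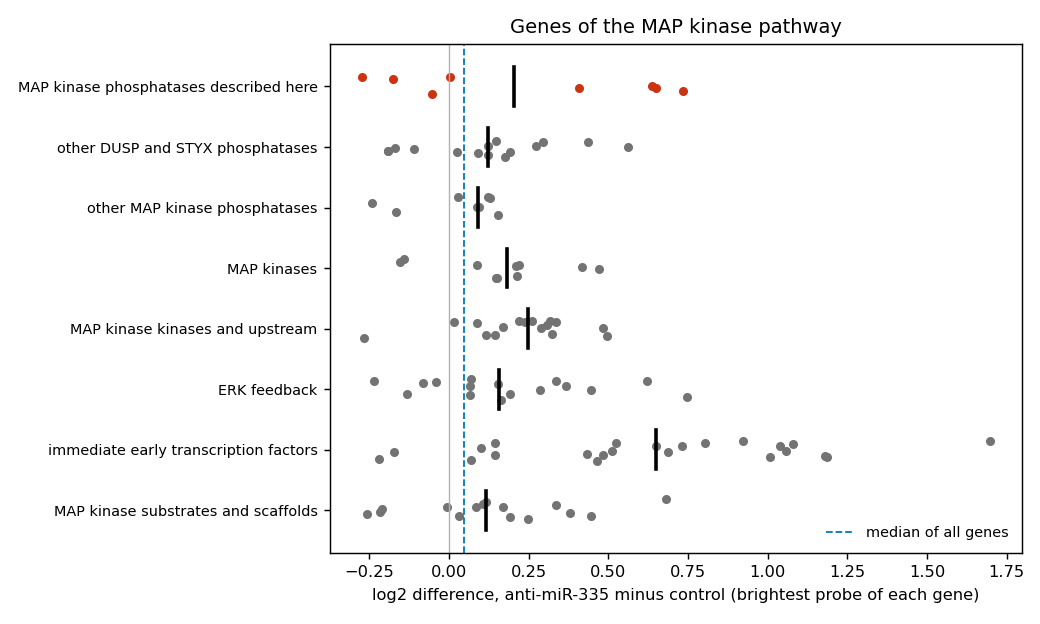
Log2 difference of anti-miR-335 minus control on the brightest probe of each gene (points), with the median of each list (black bars) and of all 18010 genes (dashed line, 0.05). The 8 phosphatase genes (red) spread from -0.27 to 0.73, with 4 of them above 0.40, of which Dusp9 and Dusp16 lie near the background limit, and the immediate early list has the highest median of the lists, 0.65.

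For the 6 members above background on all arrays, the 2 other genes with the highest Pearson correlation over the 6 arrays were named among 12134 probes above background throughout (12133 for Dusp4 and Dusp8). With so many candidates and 6 arrays that share groups and array effects, such values describe a pattern and carry no test. Dusp1 was most like Elovl6 (0.999), a fatty acid elongase gene, and Ppih (0.998). Dusp8 was most like Gpx4 (0.997), a lipid peroxide reductase gene, and Fdps (0.995), an enzyme gene of cholesterol synthesis. Dusp4 was most like Hilpda (0.998) and Hsd17b7 (0.997). Dusp7 was most like Mpped2 (0.997) and Dusp21 (0.986). Dusp2 was most like Slc25a38 (0.995) and Tspan3 (0.988), and Dusp10 most like Wdr33 (0.990) and Mrps30 (0.980).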

How the data were processed

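The deposited values are linear intensities; per the labels, the authors' CodeLink software processed the images and scaled each array by its global median, and per the file headers the software was CodeLink Expression Analysis 4.1.0.29054. Scanner output was used for replicate 1 of each group, where all 35976 and 36032 values equalled its normalized intensity within 0.0001. No genome build is given in the sources used here. Gene symbols came from the platform's annotation, set against the RefSeq gene table (GRCm38.p6), which changed 0 symbols; 21615 of 34967 gene probes had 1 symbol.

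Values under the 5th percentile of positive values (0.163) were raised to it before log2. The comparison used lmFit and eBayes (trend on intensity) of limma 3.58.1 under R 4.3.3, as a two-sided test without covariates. It covered 34847 probes, those with 2 or more values in each group. The number of arrays, 3 per group, limits the precision. Errors of log2 differences are moderated standard errors; SDs are of linear intensities. Lists are described by counts and medians, with the brightest probe for each gene. The script was tested on simulated data with 50 probes changed at each fold. The changed probes were drawn from those at or above the median intensity, and noise was independent between arrays. It recovered 14% of them at 1.5-fold, 62% at 2-fold and 90% at 4-fold. Most 1.5-fold changes were thus missed there, so a probe that did not pass may still differ. The simulation held no array that stood apart and no changed probe as dim as those of Dusp9, Dusp16 and the second Dusp7 probe. Its rates therefore need not hold for these arrays. Alternatives were quantile normalization, floors at the 1st and 20th percentile, dim probes left out, other variance trends, array weights, a replicate block and leaving arrays out.

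The members, lists, tests and alternatives were chosen with earlier results of these data known. Every probe of every member is named, with Dusp6, and from each list the probes that pass or otherwise the 3 genes of smallest p. The likeness rule takes, for each member above background on all arrays, the 2 probes of highest Pearson correlation. The planned comparison of the proteins was not run. The labels number replicates 1 to 3 in both groups without saying what a number marks, so the numbers were not taken as pairs. Between arrays of the same number, the correlations of deviations from the mean of the group were -0.25, 0.07 and -0.29. Arrays of different numbers were not compared in this way, so these values cannot show whether equal numbers share a culture.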

Additional observations from a re-analysis of the deposited data

How the results depend on the processing

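The count of all probes past the threshold was 0 with the replicate block, at either alternative floor, without dim probes and without the intensity trend. It was 1 after quantile normalization, 3 under robust variance moderation and, when arrays were weighted, 474; leaving out arrays or same-numbered pairs gave 0 to 1571. The count of phosphatase probes past it was 0 in all of these but array weights, where it was 2 (Dusp1 and Dusp8 probe GE34137), and the leave-out cases, where it was 0 to 2. The number of phosphatase genes higher was 4 to 6 throughout, out of 8 except without dim probes, where Dusp9 was not among them. Their median log2 difference of 0.21 was 0.384 with array weights, 0.00202 without dim probes, which removes Dusp9, and 0.0771 to 0.448 over the leave-out cases. Signs turned for Dusp2 and for both Dusp4 probes. Dusp2 was at -0.0052 after quantile normalization and at -0.0828 to 0.148 over the leave-out cases. Dusp4 probe GE1405774 was at 0.00338 with array weights and at -0.31 to 0.117 over those cases. Dusp4 probe GE39672 moved further from 0, to 0.21 with array weights and to -0.341 to 0.435 over those cases, with 0.30 without control replicate 1. The cause was not tested. The other 8 probes kept their sign in every fit that held them. The replicate block changed no call, with an adjusted p of 0.758 for Dusp1 and 0.753 for Dusp8 probe GE34137. On the replicate 1 pair alone, Dusp8 probe GE34137 differed by 0.14 in the deposited values, 0.13 with normexp on the scanner intensities and 0.11 with no background subtraction, and Dusp1 by -0.39, -0.32 and -0.38. Dusp9, Dusp16 and the second Dusp7 probe lie near the background limit, where a log2 difference has little meaning.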

Other observations

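A further probe, GE1399188, is described as Dusp16 in the scanner output but has no symbol in the platform's annotation, so it was not counted among the phosphatase probes. It was above background on all 6 arrays, with 2.05, 1.45 and 1.64 in the controls and 1.86, 1.77 and 1.71 in the anti-miR-335 arrays. Its log2 difference was 0.07 ± 0.17 (SE; adjusted p = 0.935 by limma), below the 0.41 ± 0.24 of the dimmer Dusp16 probe, and 0.21 ± 0.15 without control replicate 1. Dusp11, named in the scanner output alone too, read 18.7, 12.8 and 11.5 in the controls and 14.5, 16.1 and 15.5 in the anti-miR-335 arrays, with control replicate 1 again the highest of the 6 arrays.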
